A study of Mus musculus with 2 samples.

Results

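The S100 genes encode small calcium-binding proteins with paired EF-hand loops, and 7 of them were followed here: S100a8, S100a9, S100a4, S100a6, S100a10, S100a11 and S100a1. They were taken by symbol from the feature lists of both matrices, which hold 31055 genes and 18 symbols that begin with S100. The samples are 2 tumours of 1 group, labelled replicate 1 and replicate 3: subcutaneous squamous cell carcinomas in untreated mice of the FVB background, grown as mosaics from 2 coinjected carcinoma lines, CIT6 carrying YFP and CIT9 carrying RFP. Tumour sections were tagged by light with oligonucleotide codes (ZipSeq), digested, sorted for CD45+ leukocytes and run as droplet libraries that count the 3′ ends of transcripts by unique molecular identifiers (UMIs). Transplanted lines in 1 inbred strain limit the model to these lines and hosts, and no label states that each tumour had its own mouse, so every error over the 2 tumours measures only the spread between these samples.

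S100a8 and S100a9 form calprotectin, a heterodimer that fills the cytosol of neutrophils and early monocytes and, once released, is a ligand of Tlr4 and of the receptor Ager. S100a4 binds non-muscle myosin and is studied in cell motility. S100a6 binds Cacybp and annexins. S100a10 lacks calcium binding and holds Anxa2 in a complex at membranes, S100a11 pairs with Anxa1, and S100a1 is best known from heart and skeletal muscle.

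All 7 genes lie on mouse chromosome 3 (GENCODE vM21, GRCm38). S100a8 spans chr3:90668978-90670035 on the plus strand and S100a9 spans chr3:90692632-90695721 on the minus strand, with 22597 bases between them. S100a4 (chr3:90603771-90606045) and S100a6 (chr3:90612882-90624181) are neighbours on the plus strand 6837 bases apart, S100a11 (chr3:93520488-93526287) and S100a10 (chr3:93555080-93564643) are another plus-strand pair, and S100a1 (chr3:90511034-90514392) is on the minus strand. S100a4 overlaps Gm42674 on the same strand, which is also a row of the matrices, and how reads shared by both were counted is not given in the sources used here.

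The start-site windows of 5 members are printed because S100a8 and S100a9 follow each other across the cell classes while S100a4, S100a6 and S100a11 each take another course. Each runs from 150 bases before to 20 bases after the RefSeq start (GRCm38.p6), 5′ to 3′ on the gene's strand, with capitals marking TATAAA and TGANTCA. The windows are chr3:90668921-90669090 (plus), chr3:90695702-90695871 (minus), chr3:90603620-90603789 (plus), chr3:90612744-90612913 (plus) and chr3:93520346-93520515 (plus). RefSeq windows were at hand for 6 of the 7 members, S100a10 being the exception.
S100a8: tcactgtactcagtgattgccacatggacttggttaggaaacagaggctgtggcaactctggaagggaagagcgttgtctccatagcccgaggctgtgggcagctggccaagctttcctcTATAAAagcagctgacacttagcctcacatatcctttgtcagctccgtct
S100a9: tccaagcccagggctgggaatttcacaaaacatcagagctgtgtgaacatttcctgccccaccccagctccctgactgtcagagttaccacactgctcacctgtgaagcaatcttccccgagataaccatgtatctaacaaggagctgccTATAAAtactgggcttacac
S100a4: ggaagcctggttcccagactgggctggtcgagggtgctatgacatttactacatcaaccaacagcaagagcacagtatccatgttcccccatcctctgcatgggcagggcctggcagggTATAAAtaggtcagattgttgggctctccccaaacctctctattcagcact
S100a6: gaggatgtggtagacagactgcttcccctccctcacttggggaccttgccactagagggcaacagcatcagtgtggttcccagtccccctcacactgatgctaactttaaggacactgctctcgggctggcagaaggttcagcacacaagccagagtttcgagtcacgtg
S100a11: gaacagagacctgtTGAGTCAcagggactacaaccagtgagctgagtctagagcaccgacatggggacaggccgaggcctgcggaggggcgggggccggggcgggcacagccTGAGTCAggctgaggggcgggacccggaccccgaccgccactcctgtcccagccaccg
TATAAA, searched on both strands over 250 bases before to 50 after the start, was found in S100a8 at -30, in S100a4 at -31 and in S100a9 at 1, the annotated start itself. It occurs in 13.6% of all 32851 promoter windows of that length. TGANTCA was found in S100a11 alone of the 6, at -136 and -38 as TGAGTCA, and 7.81% of all windows hold it. S100a6 and S100a1 held neither. These are letter matches, which show no binding.

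Gene UMIs came to 89040909 in replicate 1 and 170328781 in replicate 3. Barcodes with at least 1000 UMIs, 500 genes and at most 10% mitochondrial UMIs were taken as cells, 4818 and 6734 of them, and Ptprc, which encodes CD45, had a UMI in 93.9% and 96.7%. Classes were gated on marker genes that include no S100 gene, so a name such as neutrophil-like states what the gate found. The 3 phagocyte classes held 389 and 36 neutrophil-like, 157 and 530 monocyte-like and 2752 and 2880 macrophage-like cells in replicates 1 and 3. No cell met the epithelial tumour gate, and 22 and 43 cells met the fibroblast gate in spite of the CD45 sort. Free RNA was read from barcodes with 1 to 20 UMIs. The 2 cell sets shared 9 barcodes, against 4.77 if independent. Levels are given as CPM, a gene's UMIs per 1000000 gene UMIs of a class sum, and their intervals cover counting error only.

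**Figure D1:**
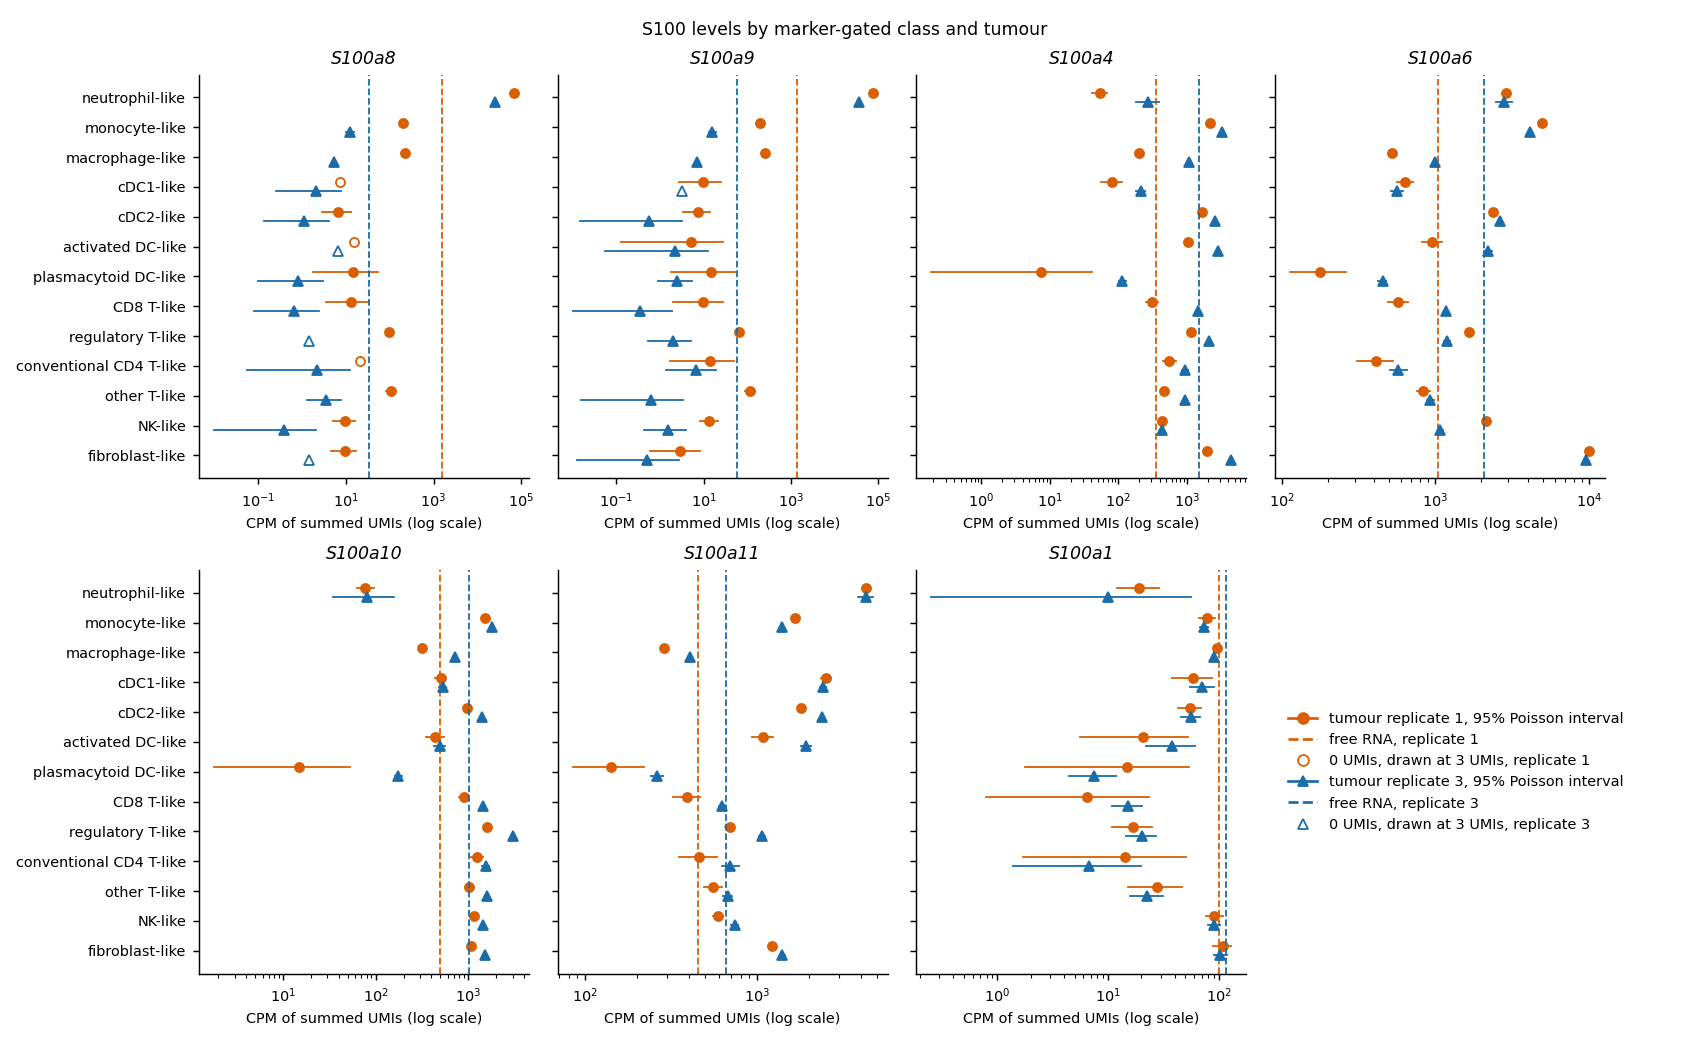
Level of each S100 gene (CPM of summed UMIs, log axis) in 13 marker-gated classes, with circles for replicate 1 and triangles for replicate 3, lines for 95% Poisson intervals of counting error, and dashed lines for free RNA. Open symbols had 0 UMIs and are drawn at the level of 3 UMIs. Of the classes drawn, S100a8 and S100a9 lie above free RNA in the neutrophil-like class alone, while the other members spread over several classes.

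S100a8 and S100a9 were neutrophil genes in both tumours. S100a8 stood at 66802 CPM (76772 UMIs) in neutrophil-like cells of replicate 1 and at 25327 CPM (2524 UMIs) in those of replicate 3. S100a9 stood at 74763 and 37429 CPM. Of the neutrophil-like cells, 97.7% and 94.4% had an S100a8 UMI, the highest holding 1020 and 286. Of the tested classes macrophage-like cells came next by the mean over both tumours, with 229 and 5.40 CPM of S100a8, and monocyte-like cells had 206 and 12.7 CPM. The ranges of these 2 classes overlapped, and the neutrophil-like range lay above every other. Among the 18 mast or basophil-like cells of replicate 1, a class too small to test, 1 cell held all 48 S100a8 UMIs (793 CPM).

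Against monocyte-like cells, the log2 fold change was 10.38 ± 0.72 (SE) for S100a8 (edgeR adjusted p = 1.77e-09) and 10.61 ± 0.71 for S100a9 (edgeR adjusted p = 1.35e-09), with 9.27 and 10.88 for S100a8 in replicate 1 and replicate 3 alone. The fit took UMIs summed per class and tumour, with the tumour as a block, over the 10 classes that reached 20 cells in both tumours. It called 6 of the 7 members, 3 higher and 3 lower, where 37.2% of all 11291 genes tested were called, 17.2% higher and 20% lower. All 7 passed the filter on low counts, which was applied over all classes of a fit and not per comparison. A gene can thus pass through the class where it is high. S100a8 had only 4 and 2 UMIs in CD8 T-like and 14 and 1 in NK-like cells of replicates 1 and 3. The scaling moved this comparison: the median log2 fold change of all genes was -0.42 after TMM scaling and -1.19 with plain library size, and the calls were 46.2% higher after TMM scaling and 18.8% with plain library size. The direction of each called member was the same under both.

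The neutrophil-like class held 64.2% of all S100a8 UMIs in cells of replicate 1 and 65.5% in replicate 3, though it made up 8.07% and 0.535% of the cells. Cells set aside because they met the gates of 2 compartments, or met a gate other than the macrophage or monocyte gate with a raised macrophage list, held another 20.7% and 15.7%, and macrophage-like cells held 10.8% and 11.4%. Free RNA carried 1541 CPM of S100a8 in replicate 1 and 33.5 CPM in replicate 3, and 1396 and 58.9 CPM of S100a9. In replicate 3, where neutrophil-like cells were few, free RNA and 9 of the 10 tested classes had less S100a8, the exception being conventional CD4 T-like cells with 0 UMIs in replicate 1 and 1 in replicate 3.

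The S100a8 and S100a9 UMIs of macrophage-like cells sat in few cells. In replicate 1, 100 of the 2752 macrophage-like cells (3.63%) had at least 20 UMIs of both genes together and held 95.3% of that class's S100a8 and S100a9 UMIs, while 63.9% of the class had none. A UMI of Retnlg or Cxcr2, genes of the neutrophil marker list, was present in 84.0% of those 100 cells and in 3.51% of the other macrophage-like cells. The level of S100a8 and S100a9 was 9720 CPM in the 100 cells, against 24.1 CPM in the remaining macrophage-like cells. The cells were split by these same UMIs, so that gap follows from the split. In replicate 3, 8 macrophage-like cells reached that number and held 83.1% of the UMIs. In the monocyte-like class 1 cell in each tumour held 90.7% and 70% of the UMIs. The share of macrophage-like cells with an S100a8 UMI was 24.0% in replicate 1 and 3.44% in replicate 3, and after thinning every cell to 1000 UMIs it was 4.57% and 0.289%. The part of doublets or of free RNA in these values was not tested.

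The balance of S100a8 and S100a9 was close in neutrophil-like and macrophage-like cells of a tumour. S100a8 made up 47.2% of the UMIs of both genes in neutrophil-like cells of replicate 1 (95% exact binomial interval 46.9 to 47.4%) and 47.3% in macrophage-like cells (46.7 to 47.9%). In replicate 3 the shares were 40.4% (39.1 to 41.6%) and 43.4% (40.3 to 46.5%). Free RNA had 52.5% (51.2 to 53.7%) and 36.3% (30.4 to 42.4%), and regulatory T-like cells of replicate 1 had 59.9% (53.4 to 66.2%). These intervals treat each UMI as independent. The UMIs of macrophage-like and regulatory T-like cells sat in few cells, so the intervals are too narrow to set classes apart. Across single neutrophil-like cells the log levels of both genes went together, with a Pearson correlation of 0.91 over 389 cells and 0.86 over 36 cells, which share library and depth and are no replicates. Per 100 UMIs of S100a8 and S100a9, Retnlg and Cxcr2 gave 3.65 UMIs in neutrophil-like cells, 2.86 in macrophage-like cells and 4.06 in free RNA of replicate 1, and 2.46, 6.52 and 5.34 in replicate 3. The macrophage-like value of replicate 1 joins 1.87 in the 100 high cells with 22.8 in the others, and that of replicate 3 joins 4.04 in the 8 high cells with 18.7 in the others. High cells were chosen by the S100a8 and S100a9 UMIs that this ratio divides by, which lowers it in them. In lymphocytes the pair was low: NK-like cells had 9.56 and 0.389 CPM of S100a8. Regulatory T-like cells of replicate 3 had 0 UMIs of S100a8, where 3 UMIs would be 1.47 CPM. The regulatory T-like level in replicate 1 was 99.3 CPM, and 3 of those 263 cells held 74.3% of the UMIs of both genes.

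**Figure D2:**
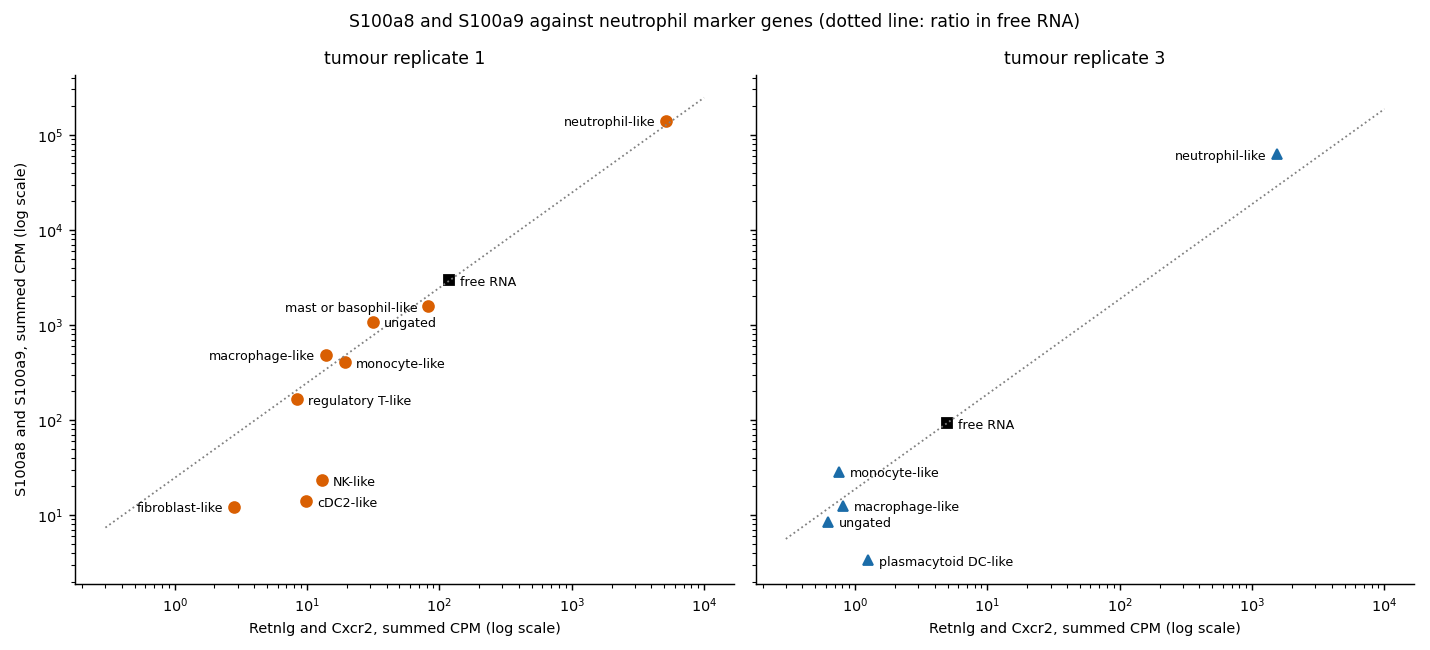
Summed CPM of S100a8 and S100a9 (y, log axis) against summed CPM of Retnlg and Cxcr2 (x, log axis) for each class with at least 3 UMIs of each pair, in replicate 1 (left) and replicate 3 (right). The black square is free RNA and the dotted line is its ratio. Macrophage-like, monocyte-like and ungated cells lie near that line below free RNA, and neutrophil-like cells lie far above free RNA on both axes. The cDC2-like, NK-like and fibroblast-like cells of replicate 1 and the plasmacytoid DC-like cells of replicate 3 lie well below the line. In replicate 3 the line rests on 14 UMIs of Retnlg and Cxcr2.

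S100a4 was high in fibroblast-like, monocyte-like, cDC2-like and regulatory T-like cells and low in neutrophil-like cells. Monocyte-like cells had 2204 and 3205 CPM in replicates 1 and 3, cDC2-like cells 1649 and 2563 CPM, and regulatory T-like cells 1141 and 2114 CPM. Macrophage-like cells had 202 and 1079 CPM and NK-like cells 426 and 439 CPM. Fibroblast-like cells had 1975 and 4375 CPM. Of the other dendritic classes, cDC1-like cells had 80.8 and 211 CPM and plasmacytoid DC-like cells 7.40 and 114 CPM. Both lay below the free RNA level of 349 and 1519 CPM. Activated DC-like cells, only 14 and 21 of them, stood at 296% and 187% of that free RNA level. Neutrophil-like cells had 53.1 and 271 CPM, from 61 and 27 UMIs of which the highest cell gave 31 and 20, and 5.91% and 19.4% of those cells had any. These ranges overlapped between most neighbours in the order, the neutrophil-like range being the only 1 that lay apart from the class above it.

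S100a4 was lower in neutrophil-like than in monocyte-like cells by a log2 fold change of -4.07 ± 0.47 (edgeR adjusted p = 1.31e-06). It was higher in monocyte-like than in macrophage-like cells, 2.37 ± 0.41 (edgeR adjusted p = 0.00033), with 3.45 and 1.54 in replicates 1 and 3 alone, and higher in cDC2-like than in macrophage-like cells, 2.10 ± 0.40 (edgeR adjusted p = 0.000685). Without the tumour block neither of the last pair of calls held (edgeR adjusted p = 0.141 and 0.164). The fit of monocyte-like against macrophage-like cells called 4 of 7 members, all 4 higher, against 15.4% of all genes tested, 7.60% higher and 7.81% lower. Of those calls 49.3% were higher by edgeR and 37.2% by DESeq2, whose median over all genes lay at -0.14 against -0.03. That of cDC2-like against macrophage-like cells called all 7, 4 higher and 3 lower, against 17.7% of genes, 9.07% higher and 8.65% lower.

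S100a6 was highest in fibroblast-like cells, then in monocyte-like, neutrophil-like and cDC2-like cells. Fibroblast-like cells had 10048 and 9659 CPM, the highest of any class, and monocyte-like cells 4971 and 4145 CPM. Neutrophil-like cells had 2890 and 2810 CPM, cDC2-like cells 2375 and 2651 CPM, and the first 4 classes in this order did not overlap. NK-like cells had 2129 and 1082 CPM and regulatory T-like cells 1663 and 1194 CPM, above the 520 and 1003 CPM of macrophage-like cells. Free RNA carried 1036 and 2085 CPM of S100a6, which in replicate 3 was above the NK-like and regulatory T-like levels. The cDC1-like (636 and 563 CPM) and plasmacytoid DC-like sums (177 and 453 CPM) were low, and conventional CD4 T-like cells, the lowest of the tested classes, 408 and 575 CPM. S100a6 did not differ beyond the error between neutrophil-like and monocyte-like cells, -0.13 ± 0.38 (edgeR adjusted p = 0.840), with 0.15 and -0.59 in replicates 1 and 3 alone after TMM scaling. That value depended on the scaling: with plain library size it was -0.68 ± 0.32 (edgeR adjusted p = 0.0790), and the CPM above were lower in neutrophil-like cells in both tumours. It was higher in monocyte-like than in macrophage-like cells, 2.57 ± 0.40 (edgeR adjusted p = 0.000119), and in cDC2-like than in macrophage-like cells, 1.81 ± 0.39 (edgeR adjusted p = 0.00189).

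S100a10 was high in regulatory T-like, monocyte-like and conventional CD4 T-like cells and, of the 10 tested classes, lowest in neutrophil-like cells. Regulatory T-like cells had 1572 and 3024 CPM, monocyte-like cells 1530 and 1808 CPM, and conventional CD4 T-like cells 1232 and 1533 CPM. NK-like cells had 1146 and 1423 CPM, CD8 T-like cells 890 and 1424 CPM, macrophage-like cells 316 and 718 CPM, and neutrophil-like cells 77.4 and 80.3 CPM. An S100a10 UMI was found in 9.25% and 13.9% of neutrophil-like cells, and in 99.2% and 98.8% of regulatory T-like cells. After thinning to 1000 UMIs per cell the shares were 4.06% and 5.69% against 76.0% and 86.2%. The fitted log2 fold change was -3.58 ± 0.33 for neutrophil-like against monocyte-like cells (edgeR adjusted p = 5.85e-08), 1.77 ± 0.28 for monocyte-like against macrophage-like cells (edgeR adjusted p = 0.000125) and 1.35 ± 0.27 for cDC2-like against macrophage-like cells (edgeR adjusted p = 0.0011). The last call did not hold without the tumour block (edgeR adjusted p = 0.0815).

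S100a11 was highest in neutrophil-like cells, followed by the conventional dendritic classes. Neutrophil-like cells had 4298 and 4265 CPM (mean 4281 ± 23.3, SD, n = 2 tumours), and cDC2-like cells 1800 and 2377 CPM. The neutrophil-like level of replicate 3 rests on 425 UMIs, so that small SD does not measure its precision. The cDC1-like sums, from 14 and 28 cells, stood at 2509 and 2413 CPM, and the plasmacytoid DC-like sums, from 11 and 160 cells, at 141 and 262 CPM. Monocyte-like cells had 1652 and 1393 CPM and macrophage-like cells, the lowest of the 10 tested classes, 286 and 407 CPM. The neutrophil-like, cDC2-like and monocyte-like ranges did not overlap. S100a11 was higher in neutrophil-like than in monocyte-like cells, 2.07 ± 0.31 (edgeR adjusted p = 2.08e-05), higher in monocyte-like than in macrophage-like cells, 2.16 ± 0.31 (edgeR adjusted p = 4.35e-05), and higher in cDC2-like than in macrophage-like cells, 2.68 ± 0.31 (edgeR adjusted p = 1.82e-06). Both S100a10 and S100a11 separated the classes, with neutrophil-like cells at opposite ends of the 2 orders.

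S100a1 was the only member called lower in T-like than in NK-like cells. NK-like cells had 91.5 and 91.0 CPM (mean 91.2 ± 0.408, SD, n = 2 tumours), macrophage-like cells 97.2 and 91.5 CPM, and fibroblast-like cells 109 and 104 CPM. The NK-like levels rest on 134 and 234 UMIs, so their small SD does not measure precision. The 3 T-like subsets lay between 6.47 and 20.1 CPM, and neutrophil-like cells had 19.1 and 10.0 CPM, from 22 and 1 UMIs. Free RNA carried 101 and 116 CPM of S100a1. A UMI was found in 53.2% and 48.1% of NK-like cells and in 6.84% and 10.9% of regulatory T-like cells, whose median UMI counts were 11735 and 9743 against 4040 and 5969. After thinning, the shares were 7.06% and 7.08% against 0.902% and 1.41%. With CD8, regulatory and conventional CD4 T-like cells summed, the log2 fold change of T-like against NK-like cells was -2.61 ± 0.21 (edgeR adjusted p = 2.31e-06), and it was -2.74 and -2.48 in replicates 1 and 3 alone.

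T-like against NK-like cells called 2 of the 7 members, 1 in each direction, against 10.3% of 11180 genes tested, 5.91% higher and 4.36% lower. The other call was S100a4, 1.38 ± 0.41 higher in T-like cells (edgeR adjusted p = 0.0447), and it was lost without the tumour block, by DESeq2 and after subtracting free RNA (adjusted p = 0.279, 0.0532 and 0.126). S100a8 and S100a9, at 2.43 ± 0.90 and 1.33 ± 0.75, were not called (edgeR adjusted p = 0.115 and 0.329), and in replicate 3 alone they stood at 0.23 and -0.08. With no filter on low counts both were called, at 2.44 and 1.34 (edgeR adjusted p = 8.63e-07 and 0.0140), and S100a8 also with 1 more marker in each gate, at 3.23 (edgeR adjusted p = 0.0449). S100a6, S100a10 and S100a11 had log2 fold changes of -0.43 ± 0.37, 0.32 ± 0.30 and -0.00014 ± 0.31, none called. Between CD8 T-like and regulatory T-like cells edgeR called 0 of the 7 members, where 6.78% of genes were called, 2.51% higher and 4.28% lower. Of those calls 36.9% were higher, and 24.6% with plain library size, which moved the median over all genes from -0.06 to -0.19 and called S100a10 and S100a11 lower. There 5 members had an unadjusted p under 0.05 by edgeR and 3 by DESeq2, and DESeq2 called 1, S100a10, at -0.79 (DESeq2 adjusted p = 0.0412). By edgeR S100a10 was at -0.84 ± 0.27 (edgeR adjusted p = 0.0703), and lower in CD8 T-like cells in both tumours. With a stricter UMI minimum for cells, edgeR called S100a8 at -4.13, S100a10 at -1.05 and S100a11 at -0.88 (edgeR adjusted p = 0.0209, 0.00746 and 0.00978). S100a1 was also lower in neutrophil-like than in monocyte-like cells, -1.26 ± 0.31 (edgeR adjusted p = 0.00309) with -2.86 from the 1 UMI of replicate 3 alone, and in cDC2-like than in macrophage-like cells, -0.68 ± 0.19 (edgeR adjusted p = 0.0167), the latter call being lost without the block (edgeR adjusted p = 0.115). It did not pass between monocyte-like and macrophage-like cells (-0.32 ± 0.18, edgeR adjusted p = 0.242), where DESeq2 called it lower at -0.44 (DESeq2 adjusted p = 0.00848).

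S100a8 and S100a9 differed between cDC2-like and macrophage-like cells by -4.28 ± 0.84 and -4.47 ± 0.81 (edgeR adjusted p = 0.000857 and 0.000381). The cDC2-like sums had only 8 and 2 UMIs of S100a8 and 9 and 1 of S100a9, and the macrophage-like UMIs sat in the few cells described above. In replicate 3 alone the values were -1.81 and -2.80. Both calls were lost without the tumour block, at -4.93 ± 2.18 and -5.08 ± 2.01 (edgeR adjusted p = 0.198 and 0.140), and that of S100a9 after subtracting free RNA, at -11.03 ± 3.19 (edgeR adjusted p = 0.0643). Between monocyte-like and macrophage-like cells neither gene was called, 0.40 ± 0.50 (edgeR adjusted p = 0.656) and 0.25 ± 0.49 (edgeR adjusted p = 0.797), and the tumours had opposite signs.

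**Figure D3:**
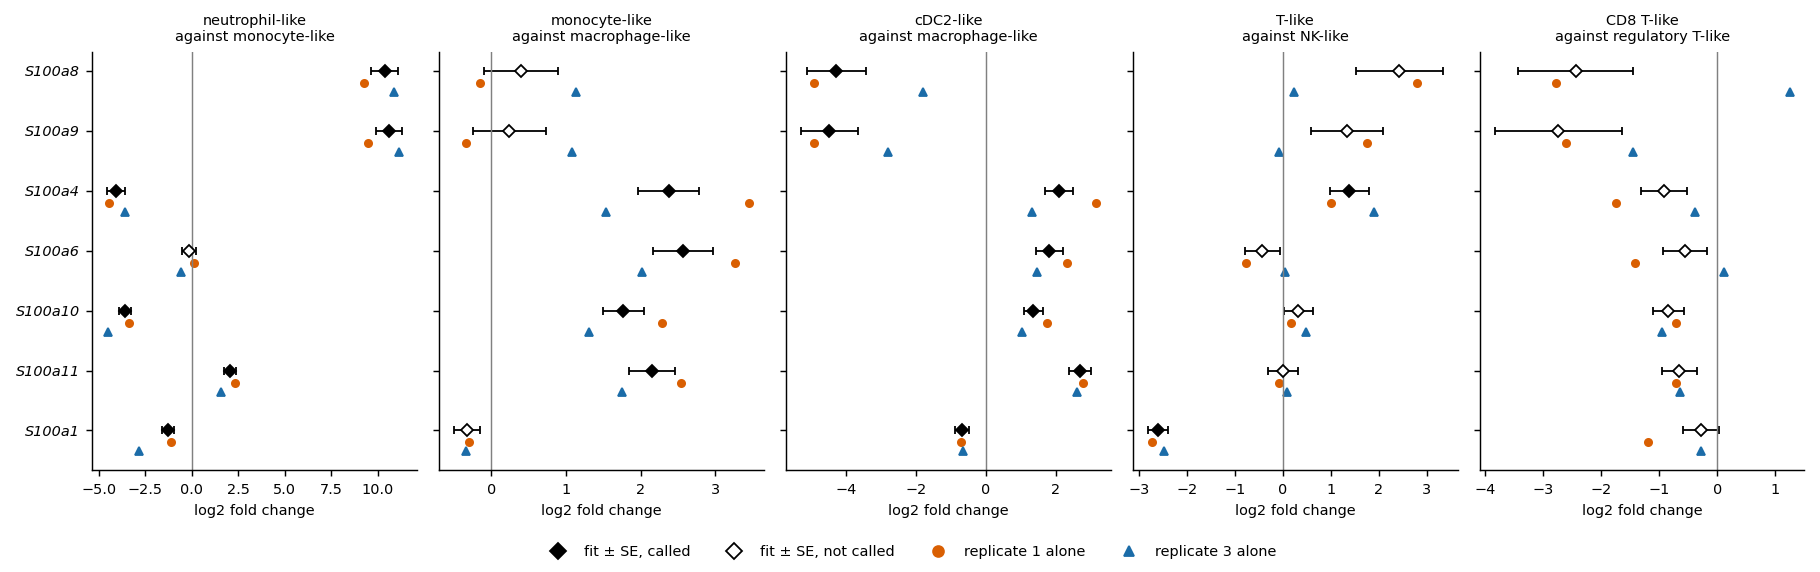
Log2 fold change of each S100 gene in 5 comparisons of marker-gated classes: diamonds with bars for the edgeR fit ± SE (filled where called at an adjusted p under 0.05), circles for replicate 1 alone and triangles for replicate 3 alone. S100a8, S100a9 and S100a11 are higher and S100a4, S100a10 and S100a1 lower in neutrophil-like than in monocyte-like cells. In CD8 T-like against regulatory T-like cells no diamond is filled.

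The partners of these proteins went in the direction of their S100 gene in some cases only. Of 15 annexins and binding partners, neutrophil-like against monocyte-like cells called 3 higher and 5 lower, where 17.2% of all genes were called higher and 20% lower (median log2 fold change -0.83, against -0.42 over all genes). Anxa1, the partner of S100a11, was higher at 2.03 ± 0.43 (edgeR adjusted p = 0.000858), and so was Anxa11 at 2.67 ± 0.27 (edgeR adjusted p = 2.54e-07). Anxa5 at -3.12 ± 0.34 (edgeR adjusted p = 5.24e-07) and Ahnak, a scaffold that binds S100a10 with Anxa2, at -3.42 ± 0.36 (edgeR adjusted p = 3.73e-07) were lower. Anxa2 itself was not called, at 0.28 ± 0.29 (edgeR adjusted p = 0.483), although S100a10 was lower. Of 7 receptors tested 3 were higher and none lower: Mcam, a calprotectin receptor, at 6.42 ± 1.18 (edgeR adjusted p = 0.000284), Cd14 at 3.14 ± 0.39 (edgeR adjusted p = 2.56e-06) and Tlr4 at 2.99 ± 0.38 (edgeR adjusted p = 4.44e-06). Mcam had means of 22.2 CPM in neutrophil-like and only 0.45 CPM in monocyte-like cells. Of 4 granule and calprotectin-linked genes tested 3 were higher, Mmp9 (8.28 ± 0.34), Lcn2 (7.97 ± 0.57) and Ltf (3.94 ± 1.00). Ltf had means of 10.2 CPM in neutrophil-like and 0.638 CPM in monocyte-like cells. In the neutrophil-like sum of replicate 3, 1 UMI is 10.0 CPM, so Ltf and Mcam rest on very few UMIs there. Of 3 other S100 genes tested 1 was lower, S100a13 (-1.14), and of 3 calmodulin genes 1 was higher, Calm2 (1.57), both named after their values were seen.

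In monocyte-like against macrophage-like cells 2 of the 15 annexins and partners were higher and 1 lower, a share near the 15.4% of all genes called (median 0.30, against -0.03 over all genes). Anxa2, the partner of S100a10, rose by 1.81 ± 0.29 (edgeR adjusted p = 0.000149) and Ahnak by 1.34 ± 0.28 (edgeR adjusted p = 0.00199), while Plau, the urokinase gene, fell by 0.89 ± 0.23 (edgeR adjusted p = 0.0133). The other calls were S100a13 (0.61), Cd36 (1.46) and the granule protease Mmp8 (3.86) higher, and Mmp9 (-1.70) lower. In cDC2-like against macrophage-like cells Anxa2 was higher (0.95), and Anxa3 (-2.42), Plau (-2.54) and Anxa5 (-1.12) were lower among the 15, against 17.7% of all genes called. The receptors Tlr4 (-1.96) and Ly96 (-1.67) were lower, Mmp9 (-3.49) was lower and Ltf (3.28) was higher. Ltf was low in both classes, with means of 2.79 CPM in cDC2-like and 0.289 CPM in macrophage-like cells. T-like against NK-like cells called Anxa1 (-1.83) and Nptn (-0.68) lower and Mmp9 (2.82) higher, where 10.3% of all genes were called. CD8 T-like against regulatory T-like cells called Cd14 (-2.02), Ly96 (-2.93) and Mmp9 lower, where 6.78% of all genes were called. Mmp9 had 0 UMIs in both CD8 T-like sums. Ly96 was low in both classes, with means of 0.511 CPM in CD8 T-like and 8.40 CPM in regulatory T-like cells. Macrophage-like cells had means of 31.3 CPM of Ly96 and 925 CPM of Cd14. The part of free RNA or of doublets in the T-like levels of both genes was not tested.

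The tumours differed in the members beyond S100a8 and S100a9 as well. Over the 10 tested classes, S100a4 and S100a10 were higher in replicate 3 in 10 of 10, at a median ratio of replicate 3 to replicate 1 of 1.92 and 1.44. The S100a4 ratio ran from 1.03 in NK-like cells to 5.34 in macrophage-like cells. S100a11 was higher in replicate 3 in 8 of 10 classes (median ratio 1.28), S100a6 in 5 of 10 (1.04) and S100a1 in 3 of 10 (0.95). S100a9 was lower in replicate 3 in 10 of 10 classes (median ratio 0.0783) and S100a8 in 9 of 10. Free RNA moved too, with ratios of 4.35 for S100a4, 2.02 for S100a10, 0.0217 for S100a8 and 0.0422 for S100a9, and its part in the class differences was not tested. With 1 sample per tumour there is no test of these ratios.

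**Figure D4:**
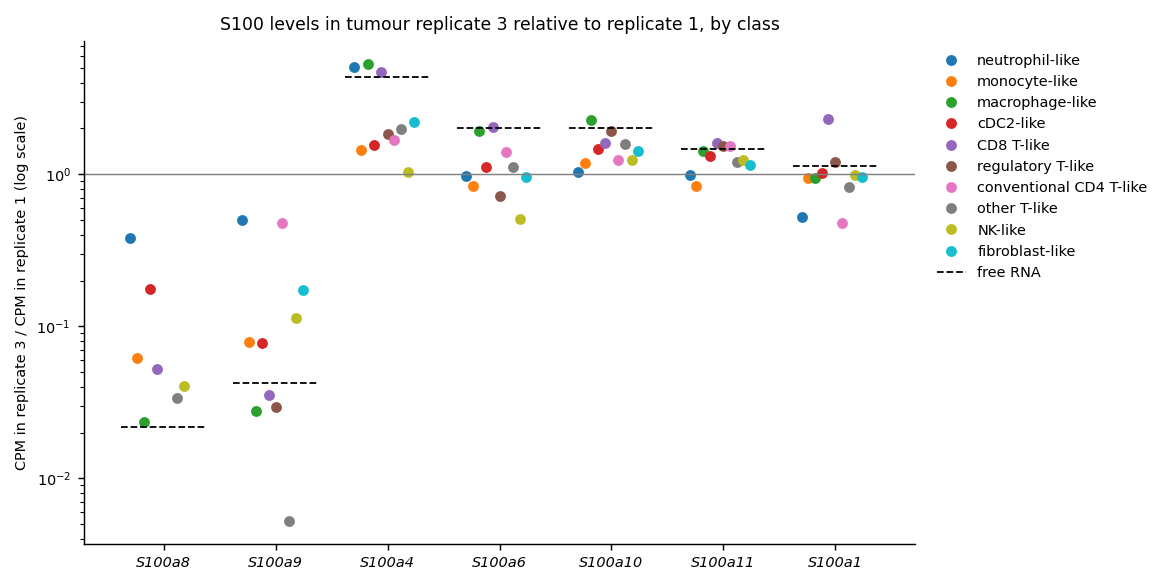
Ratio of CPM in replicate 3 to CPM in replicate 1 (log axis) for each S100 gene, with a coloured point per class with UMIs in both tumours and a dashed line for free RNA. S100a4 and S100a10 lie above 1 in all 10 classes, S100a9 below 1 in all 10, and S100a6 and S100a1 lie on both sides.

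S100a4 differed between marker-defined subsets, taken from macrophage-like and ungated cells with at least 2 of 3 subset markers. Ungated cells as a whole had 1224 and 3592 CPM of S100a4, against 202 and 1079 CPM in macrophage-like cells. The share of ungated cells in each subset was not separated, and its part in these levels was not tested. Cells with Atp6v0d2, Mmp9 or Ctsk (osteoclast-like, 39 and 66 cells) had 3047 and 7307 CPM of S100a4. Dividing cells (Mki67, Top2a or Birc5) had 911 and 2766 CPM, and cells with Cxcl9, Gbp2b or Il18bp (interferon-gamma-like) had 164 and 682 CPM. Resident-like cells (Folr2, Fcna or Cbr2) had 171 CPM in replicate 1 and 1706 CPM in replicate 3. S100a10 had the same highest and lowest subset in both tumours, 949 and 1904 CPM in osteoclast-like and 254 and 479 CPM in interferon-gamma-like cells. S100a11 was instead highest in cells with Mgl2, Asgr2 or Ear2, 575 and 780 CPM, and lowest in resident-like cells, 212 and 398 CPM. S100a1 stayed between 70.1 and 125 CPM in all 5. These subset levels rest on 1 sum per tumour and were not tested.

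**Figure D5:**
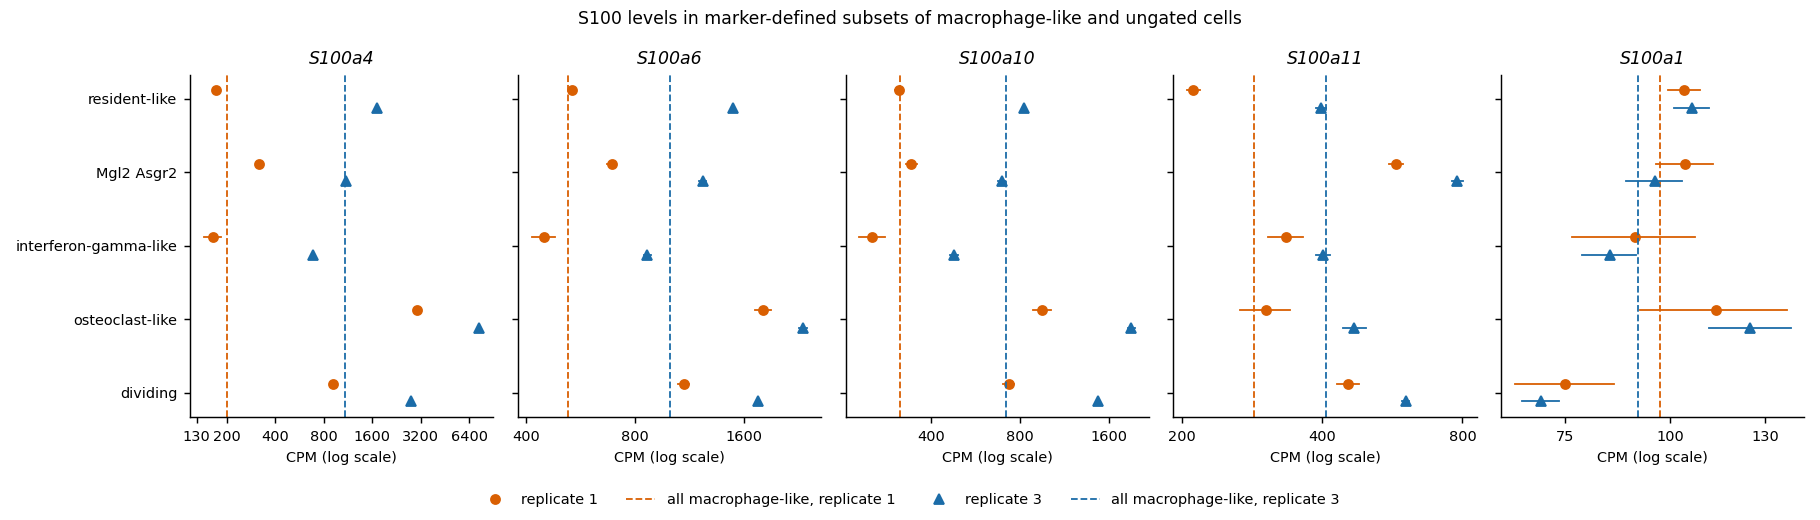
CPM (log axis) of 5 S100 genes in 5 marker-defined subsets of macrophage-like and ungated cells, with circles for replicate 1, triangles for replicate 3, lines for 95% Poisson intervals and dashed lines for all macrophage-like cells. The osteoclast-like subset is highest for S100a4, S100a6 and S100a10 in both tumours, and the Mgl2 Asgr2 subset for S100a11.

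The spatial codes gave no firm pattern. A code led a cell where it held at least 50% of the code UMIs, and the labels do not say which code marks which region. In replicate 1, 272 macrophage-like cells led by ZC1 had 545 CPM of S100a8 and 605 led by ZC5 had 61.4 CPM, and S100a4 stood at 301 and 135 CPM. When a lead of 70% was asked for, 21 ZC1-led cells remained, with 6.34 CPM of S100a8 and 178 CPM of S100a4. In replicate 3, 2683 of the 2880 macrophage-like cells were led by ZC6, and S100a4 stood at 1070 CPM in them and at 1048 CPM in the 54 led by ZC5.

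The genes whose log levels ran closest to each member over the 22 sums of 11 classes (ungated cells included, gate markers left out) were named by Pearson correlation, which shared libraries and depth can raise. For S100a8 they were S100a9 (0.99), Arg2 (0.96), Stfa2l1, Il1a and Grina. S100a4 ran closest to Dynll1 (0.89) and Vim (0.88), S100a6 to Tspo (0.89), Tpm4 (0.88) and Anxa2 (0.86), and S100a10 to Dcun1d5 and Btf3 (both 0.94). S100a11 ran closest to St3gal4 (0.89) and Ptgs2 (0.86), and S100a1 to Dbi (0.90) and Tcf4 (0.88). Among the members themselves, S100a10 ran opposite to S100a8 (-0.88), and S100a4 went with S100a10 (0.75) and S100a6 with S100a11 (0.67).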

How the data were processed

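Droplet libraries of CD45+ cells from 2 mosaic tumours were read from the deposited matrices, which hold UMI counts per feature and barcode; per the file headers and the submitters' processing notes the authors made these counts with Cell Ranger 4.0 on mm10. Replicate 1 had 89040909 and replicate 3 had 170328781 gene UMIs. The 7 genes and every gene list were chosen with earlier results of these data known. Cell and gate limits were set from the markers alone: a class needed a minimum number of its markers with a UMI and a minimum summed level, and every class but macrophage-like and monocyte-like needed a macrophage list under 40 per 10000 UMIs. Cells that met gates of 2 compartments, or failed that limit, were set aside, and no doublet caller was run. UMIs were summed per class and tumour and tested with edgeR 4.0.16 (quasi-likelihood F-test, TMM, filterByExpr, tumour as block, Benjamini-Hochberg over all genes, gate markers left out; R 4.3.3). A gene was called at an adjusted p under 0.05. The sums pair by tumour of origin: tumour differences correlated across the 45 pairs of classes at a median of 0.15 (0.013 to 0.50). Activated DC-like and plasmacytoid DC-like cells were under 20 in replicate 1, so their planned comparisons were not run. Named genes were the 7 members, up to 10 called genes of the fixed lists by size of change, and up to 5 genes closest in pattern. Anxa2 was also named where it was not called. The test was tried on simulated counts. Free RNA is the sum of barcodes with 1 to 20 UMIs. Alternatives were the block, DESeq2 1.42.0, scaling, count, cell and gate filters, subtraction of 10% free RNA, and each tumour alone.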

Additional observations from a re-analysis of the deposited data

How the results depend on the processing

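Of 406 values of the members under alternatives, 357 stayed the same, 14 gained and 10 lost a call, and 17 changed sign. Another 8, each from 1 tumour alone, moved beyond the spread. Where a test was run, the same meant the same direction and call. Values of 1 tumour alone have no call, and 24 without replicate 1 and 30 without replicate 3 counted as the same. These kept direction and differed from the fit by less than the SD of the 2 single-tumour values. No called member reversed. Without the replicate block the calls fell to 277 higher and 304 lower for monocyte-like against macrophage-like cells (858 and 882 with it), 559 and 523 for cDC2-like against macrophage-like (1024 and 977), 377 and 249 for T-like against NK-like (661 and 488) and 98 and 222 for CD8 T-like against regulatory T-like cells (283 and 483). Plain library size gave 1092 and 4716 for neutrophil-like against monocyte-like cells (1938 and 2260) and 771 lower for CD8 T-like against regulatory T-like. After subtracting free RNA the calls were 414 and 532 for monocyte-like against macrophage-like, 641 higher for cDC2-like, 289 lower for T-like, and 173 and 286 for CD8 T-like. With no filter on low counts 1324 genes were lower for monocyte-like and 1553 for cDC2-like against macrophage-like cells, and the strict cell filter left 177 higher for CD8 T-like. The cause was not tested. The sign changes were of values not called. For neutrophil-like against monocyte-like S100a6 ran from -0.59 to 0.15 when each replicate was left out. For monocyte-like against macrophage-like S100a8 (-0.12) and S100a9 (-0.30) turned without the block, and each tumour alone gave -0.15 to 1.13 and -0.34 to 1.09. For T-like against NK-like each tumour alone gave -0.0777 to 1.76 for S100a9, -0.78 to 0.0344 for S100a6 and -0.0938 to 0.0785 for S100a11. There S100a11 was at 0.00362 without the block, 0.0914 with plain library size, 0.000932 with no filter on low counts, 0.0687 at a mitochondrial limit of 5% and 0.0204 after subtracting free RNA. For CD8 T-like against regulatory T-like S100a8 and S100a9 were at 1.34 and 1.41 after subtracting free RNA. Their SEs were 26290.2 and 54342.5, so these 2 values are no estimates and their signs carry no meaning. Each tumour alone gave -2.78 to 1.25 for S100a8 and -1.42 to 0.11 for S100a6 in that comparison. Without filtering low counts S100a8, S100a9, S100a4 and S100a10 passed for CD8 T-like against regulatory T-like. The strict filter left neutrophil-like and conventional CD4 T-like cells under 20, so neutrophil-like against monocyte-like and T-like against NK-like could not be run with it. A macrophage gate at 40 per 10000, chosen after the marker lists were seen, changed no member's call. With 1 tumour no test was possible, so leaving out a replicate gives no gene counts. Replicate 3 had 36 neutrophil-like cells, which limits its precision.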
